A study of Canis lupus familiaris with 12 samples.

Results

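Gene expression in a dog melanoma cell line after exposure to piroxicam was compared with that in the same line left untreated, on 6 of the 12 arrays of the series. The line was Mi/CMM1, established from an oral melanoma of a dog, and 3 arrays of piroxicam-treated cells were chosen by their sample titles against 3 arrays of untreated cells. The sample titles give 6 h and no dose. The design text lists piroxicam at 116 µM, but the treatment protocol lists it at 779 µM for 24 h, and the labels do not settle which applies. The control is labelled as untreated with no vehicle named, so a solvent and the drug cannot be told apart. The other 6 arrays held 3 each of cells given carprofen (779 µM in the design text, 116 µM in the protocol) or robenacoxib (156 µM in both). They entered the estimate of the spread and the comparisons between drugs. The design text calls the replicates biological. All results are from 1 cell line, and RNA of a whole culture does not tell fewer cells of a kind from less RNA per cell.

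Piroxicam is an oxicam, a nonsteroidal anti-inflammatory drug that inhibits the cyclooxygenases PTGS1 and PTGS2. These enzymes turn arachidonic acid into prostaglandin H2, from which separate synthases make prostaglandins such as E2 and F2alpha, and each prostaglandin acts on cells through its own G protein-coupled receptors. In veterinary medicine piroxicam is given to dogs with several carcinomas, and PTGS2 is found in part of canine melanomas. MYC, VEGFA and CXCL8 are among the genes known in many cells to respond to growth, hypoxia and inflammatory signals.

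The 3 control arrays lay on slide 1 with carprofen 1, and piroxicam 1 and 2 lay on slide 2 with carprofen 2 and 3. Piroxicam 3 lay on slide 3 with the robenacoxib arrays, so no slide held both groups. Scan dates in the file headers followed the slides. Without a slide term, the drug cannot be told apart from slide or scan. Values are log2 of the processed signal minus the array's 75th percentile, and each tested difference is the piroxicam mean minus the control mean. Between 66.2% and 79.3% of the probes were well above background, lowest on piroxicam 3 and highest on control 3, and these arrays were the extremes of the first principal component of the 6. This component did not separate the groups, since piroxicam 2 (-6.8) lay on the control side of control 2 (-6.4). Arrays correlated at 0.9964 to 0.9982 among controls, at 0.9946 to 0.9965 among piroxicam arrays and at 0.9901 to 0.9959 between the groups. Names could be given to 1313 of 43603 probes, and 614 named genes had a tested probe, each read on its brightest tested probe. Of 8 melanocyte markers 2 were named. MITF, the transcription factor of the melanocyte lineage, was well above background on all 6 arrays and differed by 0.00014 (SE 0.028, adjusted p = 0.998), whereas TYR, the pigment enzyme tyrosinase, was above background on 0 of 6. The label could not be checked further, since the other markers, PMEL and MLANA among them, had no named probe.

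Of 31996 tested probes, 3805 (11.9%) read higher and 5145 (16.1%) read lower in the piroxicam group at a limma adjusted p below 0.05, 28% in all. The named genes were close to this background, with 69 of 614 higher (11.2%) and 98 lower (16%), together 167 or 27.2%. These shares are the background for the counts of every gene list below, and no list was tested as a whole. Without control 3 and piroxicam 3, the arrays at the extremes, 2268 probes and 35 named genes were higher and 2512 and 40 lower, and leaving out control 2 or control 3 alone gave 65 and 62 lower named genes. The called changes had a median size of 0.21 on the log2 scale, and 26 probes were higher (0.0813%) and 135 lower (0.422%) by 2-fold or more. Of these, 17 of the higher and 18 of the lower probes exceeded background well on all 6 arrays. The signals of the groups did not overlap for 47.8% of the probes and for 302 named genes (49.2%). A slide block left 805 probes higher (2.52%) and 824 lower (2.58%), 5.09% in all, and among named genes 21 higher (3.42%) and 11 lower (1.79%), 5.21% in all. For this comparison the block estimate is the sum of 2 differences measured within a slide, carprofen 1 minus the controls on slide 1 and piroxicam 1 and 2 minus carprofen 2 and 3 on slide 2, so that piroxicam 3 does not enter it. For MYC the parts were -0.43 and 1.09. Scaled to the spiked-in transcripts instead of the 75th percentile, every change moved up by 0.174, the median of all probes went from -0.023 to 0.151, and 93% of the called probes were higher, against 42.5% here. A rise or fall below is therefore relative to the rest of the array.

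**Figure D1:**
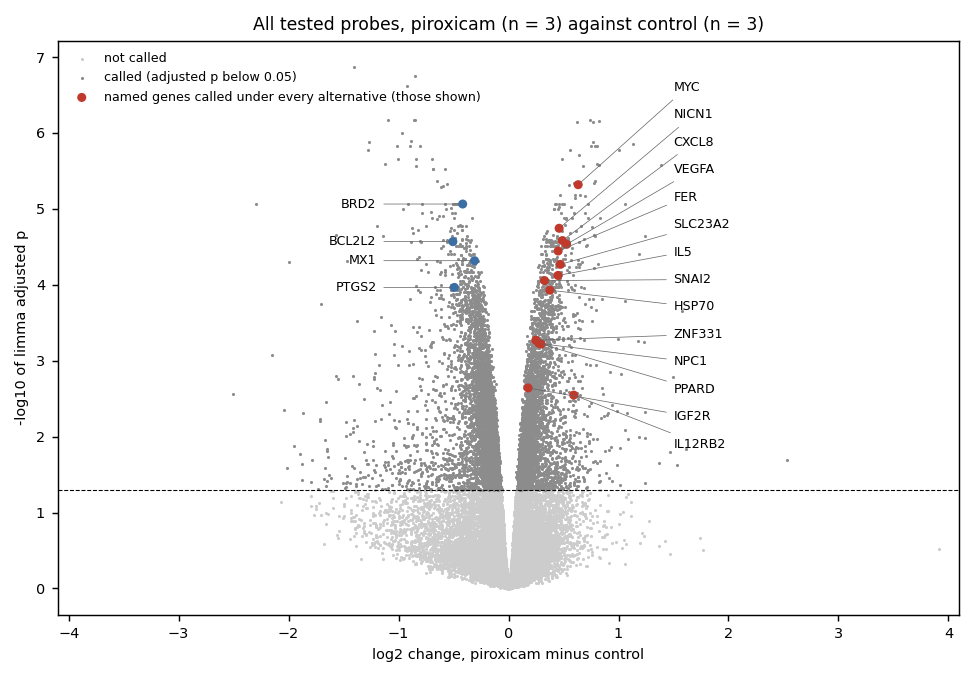
Log2 change (x axis) against -log10 of the limma adjusted p (y axis) for the 31996 tested probes, piroxicam minus control, 3 arrays each, with the dashed line at 0.05. Coloured points are 18 of the 19 named genes called under every alternative, red for 14 higher and blue for 4 lower, and they lie between log2 changes of -0.51 and 0.63 amid many unnamed probes with changes as large.

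Of the 167 called genes, 28 passed with the same sign in the block fit, 19 higher and 9 lower. Among those higher were MYC, IL12RB2, VEGFA, CXCL8, SLC23A2, NICN1, PTGFR, FER, IL5, HSP70, GALC, SNAI2, PPARD, NPC1, ZNF331, FGFR2, IGF2R and COX17. Among those lower were TJP1, LOC403555, SLC11A1, MX1, CDKN1B, BRD2, PTGS2 and BCL2L2. The other 139 calls did not pass with the block, and this holds for every called gene named below that is not in these lists. A set of 19 genes was called in the same direction under all 21 alternatives of scaling, filtering, model and left-out arrays: 15 that rose (among them MYC, IL12RB2, VEGFA, CXCL8, SLC23A2, NICN1, FER, IL5, HSP70, SNAI2, PPARD, NPC1, ZNF331 and IGF2R) and 4 that fell (MX1, BRD2, PTGS2 and BCL2L2). The alternatives share arrays, so keeping a call is no separate evidence. FER, ZNF331, IGF2R, COX17, TJP1 and LOC403555 are named because of these results and were not picked by the naming rule. Among the genes named below, 1 of 2 tested probes was called for SLC5A2, RARA, HSD17B14, FGFR2, COL7A1, UTRN, BIRC3, RAB11A, RAB5A, SRP72 and VHL, 2 of 4 for VPS52, 5 of 6 for COL1A2, 2 of 3 for IGF2R and 1 of 2 for TJP1.

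**Figure D2:**
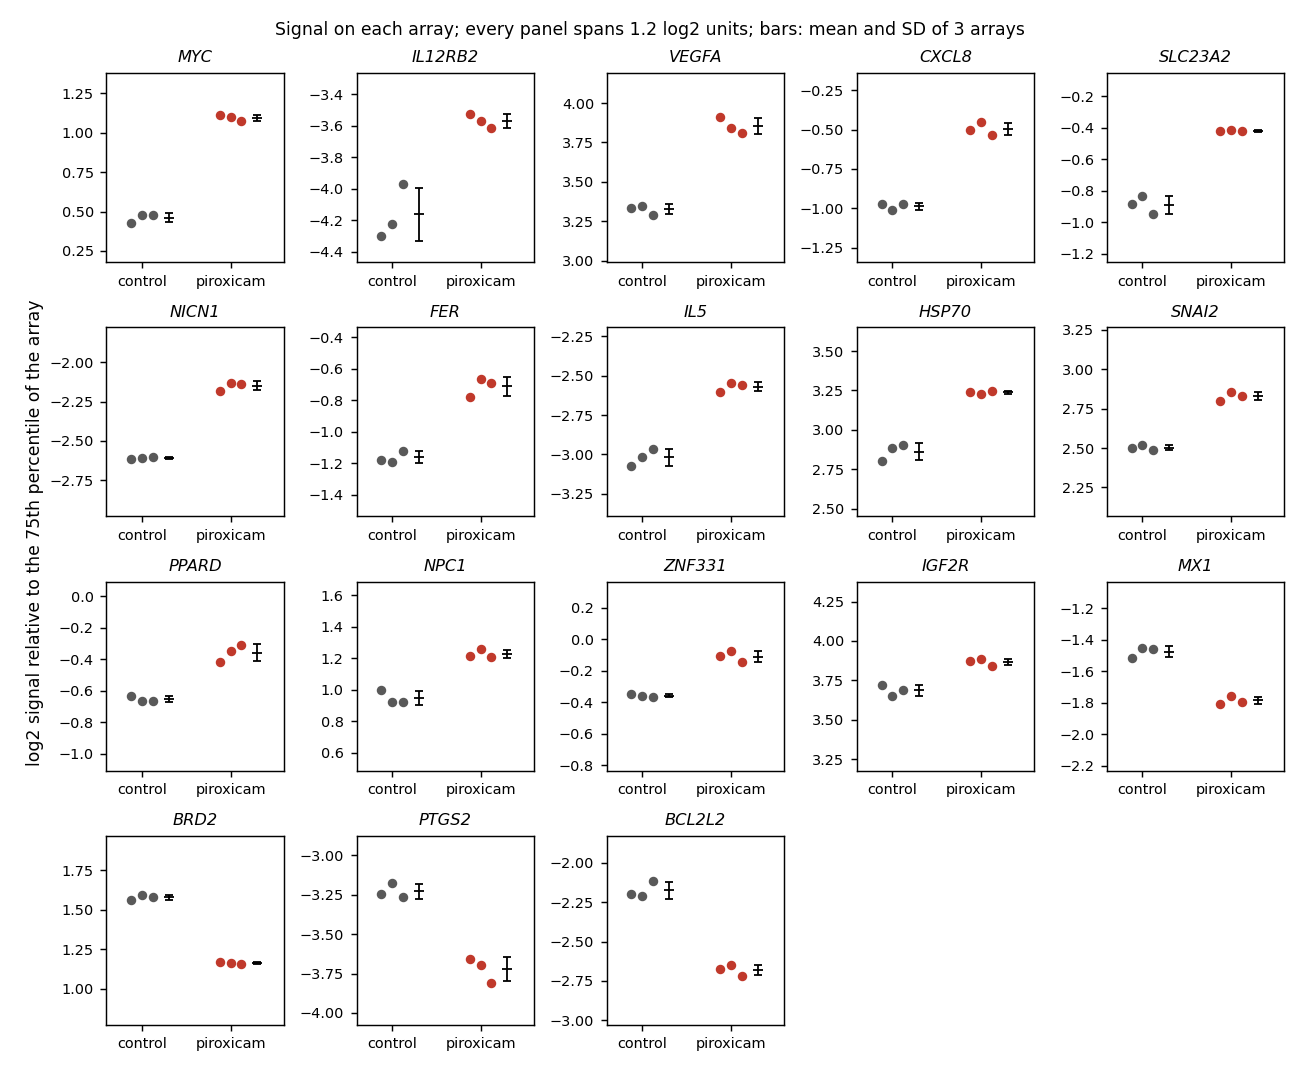
Signal on each control (grey) and piroxicam (red) array for 18 of the 19 named genes called under every alternative, on the y axis in log2 units relative to the array's 75th percentile, with the mean and SD of 3 arrays as black bars and the same span of 1.2 log2 units in each panel. All 3 piroxicam arrays lie above the controls in 14 panels and below them in 4.

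The growth regulator MYC, a transcription factor, read 0.43, 0.48 and 0.48 on the control arrays and 1.11, 1.10 and 1.07 on the piroxicam arrays, so the arrays of each group lay close together and far from those of the other group. It rose 1.55-fold (log2 change 0.63, SE 0.032, adjusted p = 4.8e-06, 95% confidence interval 0.56 to 0.71), by 0.66 in the block fit (adjusted p = 0.00565) and by 0.81 against the spiked-in transcripts. In the list of immediate early and MYC network genes ID3, an inhibitor of basic helix-loop-helix factors, fell by 0.13 (adjusted p = 0.0385), and FOSB and NR4A1 did not pass. Among 5 cell cycle genes 0 rose and 2 fell. CDKN1B, the cyclin-dependent kinase inhibitor p27, read -1.48, -1.46 and -1.38 in control and -1.77, -1.82 and -1.72 with piroxicam. It fell by 0.33 (SE 0.036, adjusted p = 0.000245) with 2 of 2 probes called, and with the block it stood at -0.29 (adjusted p = 0.0443). CCNB3, a B-type cyclin, fell by 0.18 (adjusted p = 0.00664), while the G1 cyclin CCND1 differed by 0.029 (adjusted p = 0.459) and BIRC5, which encodes the mitotic protein survivin, by -0.021 (adjusted p = 0.746).

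Of 9 genes of chromatin and transcription 1 rose and 2 fell, near the 11.2% higher and 16% lower of all named genes. BRD2, which binds acetylated histones, read 1.56, 1.59 and 1.58 on the controls and 1.17, 1.16 and 1.16 with piroxicam, a fall of 0.42 (SE 0.024, adjusted p = 8.63e-06) seen on 3 of 3 probes, and stood at -0.36 with the block (adjusted p = 0.00877). SNAI2, a zinc-finger repressor of the neural crest and melanocyte lineage, read 2.50, 2.52 and 2.49 against 2.80, 2.85 and 2.83. Its rise was 0.33 (SE 0.029, adjusted p = 8.8e-05) and 0.41 with the block (adjusted p = 0.00924). PAX6, an eye and brain transcription factor, fell by 0.23 (adjusted p = 0.00107) on 2 of 2 probes. Outside this list POU1F1, a pituitary transcription factor at -5.45 ± 0.012 in control (mean ± SD, n = 3), rose by 0.52 (SE 0.13, adjusted p = 0.0193).

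Among 10 prostanoid enzyme, receptor and transporter genes 1 rose, 2 fell and 7 did not pass, with a median change of 0.0024 beside -0.0079 over all 614 genes. Over all named genes 11.2% rose and 16% fell, so the counts for the pathway of the drug were near the background. PTGS2, the inducible cyclooxygenase, read -3.25, -3.17 and -3.27 in control cells and -3.66, -3.70 and -3.81 with piroxicam, every piroxicam array below every control array. It fell by 0.49 (SE 0.046, adjusted p = 0.000108), by 0.40 in the block fit (adjusted p = 0.0289) and by 0.32 against the spiked-in transcripts. PTGS1, the constitutive cyclooxygenase, read -6.39, -6.94 and -6.29 in control and -6.55, -6.20 and -3.92 with piroxicam. The difference of 0.98 (SE 0.59, adjusted p = 0.247) came with overlapping groups, in which piroxicam 3 stood above the other 5 arrays. The block estimate, which piroxicam 3 does not enter, was -0.39 (adjusted p = 0.66). PTGES, which converts prostaglandin H2 to E2, stood -0.25 from control (adjusted p = 0.118).

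Among the prostaglandin receptors PTGFR, which binds prostaglandin F2alpha, read -3.71, -3.73 and -3.72 against -3.29, -3.25 and -3.23 and rose by 0.46 (SE 0.042, adjusted p = 9.48e-05; 0.54 with the block, adjusted p = 0.0122). PTGER2, a receptor for prostaglandin E2, was well above background on 3 control arrays and 1 piroxicam array, and its measured signal fell from -5.90 ± 0.24 to -6.73 ± 0.33 (adjusted p = 0.00453), a difference that rests on dim spots. PTGER4, the other prostaglandin E2 receptor tested, differed by 0.01 (adjusted p = 0.889), and the prostaglandin transporter gene SLCO2A1 by -0.017 (adjusted p = 0.907). PRKACA, a catalytic subunit of the cyclic AMP-dependent protein kinase, read -2.85, -2.90 and -2.78 in control and -3.25, -3.21 and -3.08 with piroxicam and fell by 0.34 (adjusted p = 0.00339).

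Of 18 inflammatory cytokine and receptor genes 2 rose and 1 fell. CXCL8, the chemokine interleukin 8 that attracts neutrophils, read -0.98, -1.01 and -0.97 in control and -0.51, -0.46 and -0.53 with piroxicam, and rose 1.4-fold (log2 change 0.49, SE 0.035, adjusted p = 2.62e-05) on 4 of 4 probes. With slide as a block the rise was 0.46 (adjusted p = 0.0144). IL5, the eosinophil growth factor, read -3.07, -3.02 and -2.96 against -2.60, -2.55 and -2.56 and rose by 0.45 (SE 0.039, adjusted p = 7.54e-05). CCL17, a chemokine for T cells, fell by 0.15 (adjusted p = 0.0172), and TNF, IL10, IL18 and NFKB1 were among the 15 that did not pass. The list did not hold IL12RB2 and P2RX7. IL12RB2, a subunit of the interleukin 12 receptor, read -4.30, -4.22 and -3.97 in control and -3.53, -3.57 and -3.61 with piroxicam. It rose by 0.59 (SE 0.10, adjusted p = 0.00284), and the block estimate of 0.88 (adjusted p = 0.0376) was larger. P2RX7, an ATP-gated cation channel of inflammatory signalling, read -4.12, -4.07 and -4.14 against -3.52, -3.42 and -3.67, a rise of 0.57 (adjusted p = 0.0143) that shrank to 0.12 with the block (adjusted p = 0.688).

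Interferon response and pattern receptor genes gave 1 higher and 2 lower of 8. MX1, an antiviral GTPase, read -1.51, -1.46 and -1.46 in control and -1.81, -1.76 and -1.79 with piroxicam and fell by 0.31 (SE 0.025, adjusted p = 4.81e-05) on 2 of 2 probes, with -0.31 in the block fit (adjusted p = 0.021). OAS1, an interferon-induced oligoadenylate synthetase, fell by 0.19 (adjusted p = 0.00845; -0.29 with the block, adjusted p = 0.0647). OAS2, OAS3 and EIF2AK2 did not pass. TLR7, a receptor for single-stranded RNA, went the other way, from -4.50, -4.42 and -4.74 in control to -4.07, -3.89 and -3.87 with piroxicam, and rose by 0.61 (adjusted p = 0.0136). The antigen presentation and MHC region list gave 0 higher and 4 lower of 19, beside 11.2% and 16% over all named genes. BRD2 above and the class I gene DLA-64 (by 0.18, adjusted p = 0.0216, on 1 of 3 probes) fell. So did VPS52, a tethering factor of endosome-to-Golgi traffic (by 0.15, adjusted p = 0.0133), and the class II gene DLA-DQB1. DLA-DQB1 was well above background on 3 control arrays and on 0 piroxicam arrays, and the lowest detectable signal on those arrays was too high to give a fold. Its measured means were -6.65 ± 0.23 and -8.06 ± 0.62 (adjusted p = 0.00609).

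VEGFA, a growth factor for blood vessels, read 3.34, 3.35 and 3.29 in control cells and 3.91, 3.84 and 3.81 with piroxicam, and rose 1.44-fold (log2 change 0.53, SE 0.038, adjusted p = 2.93e-05) with 2 of 2 probes called. With slide as a block the rise was 0.53 (adjusted p = 0.0137). All 4 tested genes of the hypoxia and glycolysis list were called, 2 in each direction, beside 11.2% higher and 16% lower over all named genes. With slide as a block 1 of the 4, VEGFA, kept its call. ADM, the vasodilator peptide adrenomedullin, rose by 0.13 (adjusted p = 0.00731), and VHL, the substrate-binding part of a ubiquitin ligase for hypoxia-inducible factors, fell by 0.21 (adjusted p = 0.0227). GAPDH, a glycolytic enzyme, read 7.60, 7.65 and 7.67 in control and 7.27, 7.32 and 7.33 with piroxicam. It fell by 0.33 (adjusted p = 0.00846) as scaled here, with 6 of 7 probes lower, but stood at -0.059 with the block and above 0 in the authors' deposited values and under normexp with quantile normalization. ANGPT1, a ligand that stabilises vessels, fell by 0.32 (SE 0.066, adjusted p = 0.00691).

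Of 13 genes of growth factors and their signalling 4 rose and 1 fell. FGFR2, a fibroblast growth factor receptor, rose by 0.18 (adjusted p = 0.00896) and by 0.32 with the block (adjusted p = 0.0294). PDGFRB, a receptor for platelet-derived growth factor, read -3.23, -3.34 and -3.31 in control and -2.88, -2.65 and -2.84 with piroxicam. Its rise of 0.50 (adjusted p = 0.0239) was 0.11 with the block (adjusted p = 0.821), and 1 of its 2 probes was called. FER, a cytoplasmic tyrosine kinase not in this list, read -1.18, -1.19 and -1.12 against -0.78, -0.66 and -0.69 and rose by 0.45 (SE 0.034, adjusted p = 3.59e-05).

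Of 5 heat shock and chaperone genes 1 rose and 1 fell, beside 11.2% higher and 16% lower over all named genes. HSP70, the stress-inducible 70-kDa heat shock protein, read 2.80, 2.88 and 2.90 in control and 3.24, 3.23 and 3.25 with piroxicam and rose 1.3-fold (log2 change 0.38, SE 0.036, adjusted p = 0.000118) on 4 of 4 probes, with 0.43 in the block fit (adjusted p = 0.0207). HSPA4, a partner of HSP70 in protein folding, fell by 0.19 (adjusted p = 0.00535) on 2 of 2 probes, and the other 3 of 5 did not pass. The endoplasmic reticulum list had 0 higher and 3 lower of 17, within a narrow range of changes from -0.17 to 0.11. Those lower were SRP72 of the signal recognition particle (by 0.17, adjusted p = 0.00844), SEC11A of the signal peptidase (by 0.10, adjusted p = 0.0381) and RAB1A (by 0.12, adjusted p = 0.021). HSP90B1 and CANX, chaperones of the same compartment, did not pass.

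Of 14 apoptosis regulators 2 rose, 2 fell and 10 did not pass, with a median change of -0.025. BCL2L2, an inhibitor of apoptosis of the BCL2 family, read -2.20, -2.21 and -2.11 in control and -2.68, -2.65 and -2.72 with piroxicam. It fell 1.42-fold (log2 change -0.51, SE 0.036, adjusted p = 2.7e-05), stood at -0.49 with the block (adjusted p = 0.0158) and at -0.33 against the spiked-in transcripts. DIABLO, a mitochondrial antagonist of the inhibitor of apoptosis proteins, fell by 0.20 (adjusted p = 0.000965). CASP9, an initiator caspase, rose by 0.15 (adjusted p = 0.0149) and BIRC3, an inhibitor of apoptosis, by 0.10 (adjusted p = 0.0444). The antiapoptotic BCL2 and MCL1 differed by -0.029 and 0.0077 (adjusted p = 0.573 and 0.909), and BAX, BAK1 and BCL2L1 did not pass. In the p53 and DNA damage list 2 of 6 rose, the repair genes PRKDC (by 0.15, adjusted p = 0.0308) and BRCA2 (by 0.13, adjusted p = 0.0212), and MDM2 did not pass. In the translation and the mitochondria lists, with 2 tested genes each, 0 were called at an adjusted p below 0.05.

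Of 21 lysosomal genes 5 rose and 4 fell with a median of 0.018, beside 11.2% higher and 16% lower over all named genes. NPC1, which exports cholesterol from lysosomes, read 0.996, 0.92 and 0.92 in control and 1.22, 1.25 and 1.21 with piroxicam. It rose by 0.28 (SE 0.036, adjusted p = 0.000593) on 2 of 2 probes and by 0.37 with the block (adjusted p = 0.0238). GALC, the hydrolase of galactosylceramide, read -3.61, -3.58 and -3.60 against -3.27, -3.26 and -3.25 and rose by 0.34 (adjusted p = 2.49e-05; 0.33 with the block, adjusted p = 0.0148). IGF2R, the mannose 6-phosphate receptor that carries hydrolases to the lysosome, rose by 0.18 (SE 0.03, adjusted p = 0.00228). The protease gene CTSS moved down, by 0.31 (adjusted p = 0.0104).

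Of 5 cholesterol and lipid genes 3 rose and 0 fell, with a median of 0.30: NPC1, ADIPOQ and PPARD. Over all named genes 11.2% rose and 16% fell. PPARD, a nuclear receptor for fatty acids, read -0.63, -0.67 and -0.66 in control and -0.42, -0.35 and -0.31 with piroxicam. It rose by 0.30 (SE 0.038, adjusted p = 0.000602) on 2 of 2 probes and by 0.33 with the block (adjusted p = 0.0378). ADIPOQ, the hormone adiponectin of fat cells, rose by 0.44 on 1 of 2 probes (adjusted p = 0.0302). RARA, a retinoic acid receptor, rose by 0.31 (adjusted p = 0.0126), so 2 of 4 nuclear receptor genes rose. PPARG was named on the array but did not pass the filter on dim probes.

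Of 16 RAB GTPase and traffic genes 0 rose and 6 fell, beside 11.2% higher and 16% lower over all named genes. The list median was -0.067, beside -0.0079 over all named genes. With slide as a block 0 of the 6 falls kept their call. The falls were small, from 0.12 for RAB1A of early secretory traffic (adjusted p = 0.021) to 0.24 for RAB7A of late endosomes (adjusted p = 0.0143). RAB5A of early endosomes changed by -0.16 (adjusted p = 0.00344) and RAB11A of recycling endosomes by -0.15 (adjusted p = 0.0148). Against the spiked-in transcripts RAB1A, RAB5A, RAB11A and VPS52 stood above 0 and the list median was 0.11. The antioxidant, iron and metal list had 2 higher and 6 lower of 16. SLC11A1, a metal transporter of phagosomes, read 2.09, 2.10 and 2.09 against 1.78, 1.79 and 1.85 and fell by 0.28 on 2 of 2 probes (adjusted p = 0.000242; -0.22 with the block, adjusted p = 0.0313). The metallothionein MT1E changed by -0.16 (adjusted p = 0.00257) and was not lower against the spiked-in transcripts. GPX5, a glutathione peroxidase, and ATP7B, a copper-exporting pump, rose by 0.35 and 0.15 (adjusted p = 0.0337 and 0.0138).

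In the adhesion, junction and barrier list 3 rose and 2 fell of 11. TGM1, the transglutaminase that cross-links the epidermal barrier, read -3.48, -3.42 and -3.27 in control and -4.07, -3.89 and -4.03 with piroxicam and fell 1.53-fold (log2 change -0.61, SE 0.065, adjusted p = 0.000206), with -0.47 in the block fit (adjusted p = 0.0761). TJP1, the tight junction protein ZO-1, fell by 0.18 (SE 0.022, adjusted p = 0.000346). CLDN3, a claudin of tight junctions, read -3.26, -3.13 and -3.45 against -2.88, -2.81 and -2.61, a rise of 0.52 (adjusted p = 0.0202) that shrank to 0.11 with the block. The integrin genes ITGB3 and ITGA2B rose by 0.24 and 0.22 (adjusted p = 0.0372 and 0.0221). Matrix genes gave 1 higher and 3 lower of 14: COL7A1, the collagen of anchoring fibrils, rose by 0.15 (adjusted p = 0.0115), and the proteoglycans DCN and BGN and the collagen COL1A2 fell by 0.42, 0.12 and 0.10 (adjusted p = 0.0174, 0.0234 and 0.0413).

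**Figure D3:**
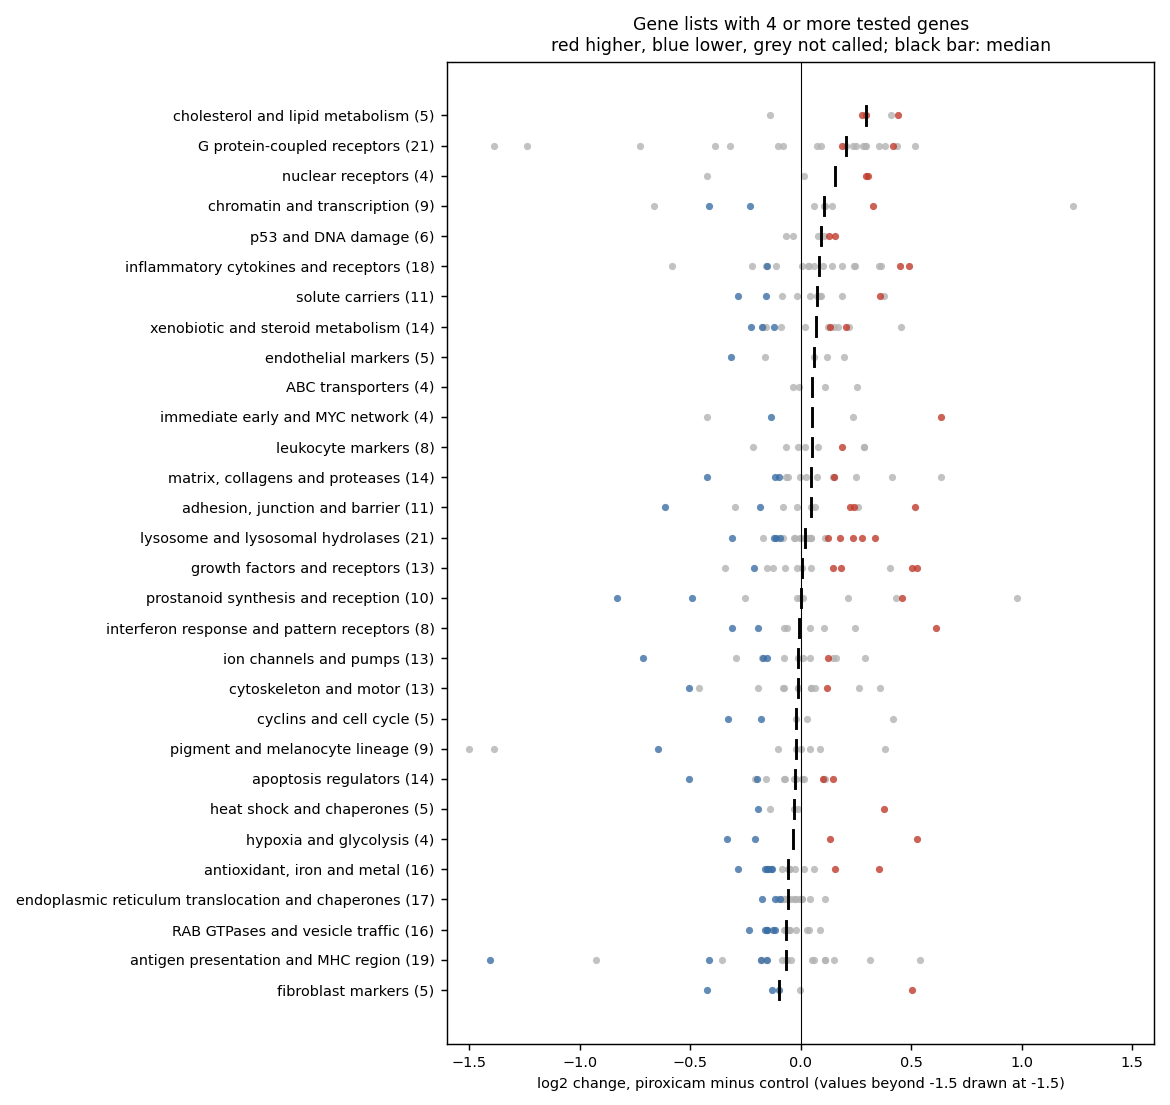
Log2 change of each tested gene (x axis) in the gene lists with 4 or more tested genes (y axis, number tested in brackets), piroxicam minus control, 3 arrays each. Red points were higher, blue lower and grey not called, and the black bar is the list median. The medians lie between -0.10 and 0.21 apart from cholesterol and lipid metabolism at 0.30, and most lists hold both red and blue points.

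The list of G protein-coupled receptors had a median of 0.21, and 2 of 21 rose while 0 fell, beside 11.2% higher and 16% lower over all named genes. It left out the prostaglandin receptors PTGFR, which rose, and PTGER2, which fell, both counted in the prostanoid list. HTR2B, a serotonin receptor, read -5.32, -5.24 and -5.30 in control and -4.84, -4.96 and -4.82 with piroxicam and rose by 0.42 (SE 0.065, adjusted p = 0.00166; 0.45 with the block, adjusted p = 0.0952). BDKRB1, a kinin receptor, rose by 0.19 (adjusted p = 0.0114). Of the solute carriers 1 of 11 rose and 2 fell, with SLC5A2, a renal glucose transporter, higher by 0.36 (adjusted p = 0.041) and SLC3A1, a subunit of a cystine transporter, lower by 0.16 (adjusted p = 0.0485). Outside that list SLC23A2, a sodium-dependent vitamin C transporter, read -0.89, -0.83 and -0.95 in control and -0.42, -0.41 and -0.42 with piroxicam. It rose by 0.47 (SE 0.039, adjusted p = 5.38e-05) and by 0.38 with the block (adjusted p = 0.0278). NICN1, read at -2.62, -2.61 and -2.60 against -2.18, -2.13 and -2.14, rose by 0.46 (SE 0.03, adjusted p = 1.8e-05), and the zinc finger gene ZNF331 by 0.25 (adjusted p = 0.000537). COX17, a copper chaperone for cytochrome c oxidase, rose by 0.11 (adjusted p = 0.029), and LOC403555 fell by 0.20 (adjusted p = 0.000519).

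Of 14 xenobiotic and steroid enzymes 2 rose and 3 fell. HSD17B14, a hydroxysteroid dehydrogenase, rose by 0.20 (adjusted p = 0.00234) and TPMT, a thiopurine methyltransferase, by 0.13 (adjusted p = 0.00514), while the cytochrome CYP2B6 fell by 0.22 (adjusted p = 0.00524) and the sulfotransferase SULT1A1 by 0.17 (adjusted p = 0.0278). For CYP4A11, a fatty acid hydroxylase, and CELA1, an elastase, other probes of the gene were called in the opposite direction, so their probe values of 0.30 and 0.21 give no direction. None of the 4 ABC transporter genes was called (0 higher and 0 lower, changes from -0.034 to 0.26), and the efflux pump gene ABCB1 differed by -0.0069 (adjusted p = 0.915) on its brighter probe, with its other probe called higher. Channels and pumps gave 1 higher and 3 lower of 13. CLCN1 is described below, the gastric proton pump ATP4A rose by 0.12 (adjusted p = 0.0463) and KCNMB1 and ATP1B1, subunits of a potassium channel and of the sodium pump, fell by 0.17 and 0.15 (adjusted p = 0.0291 and 0.0119). Of 13 cytoskeleton genes UTRN, the dystrophin relative utrophin, rose by 0.12 (adjusted p = 0.025) and TNNI3, cardiac troponin I, fell by 0.50 (adjusted p = 0.00648) on 2 of 2 probes.

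Among the widest changes of genes well above background on all 6 arrays were genes with dim signals and wide spreads. VNN1, a pantetheinase, read -5.92, -6.27 and -6.44 in control and -4.91, -5.52 and -4.08 with piroxicam, a rise of 1.37 (SE 0.37, adjusted p = 0.0221) that stood at 0.91 with the block (adjusted p = 0.409). AANAT, an enzyme of melatonin synthesis, read -4.31, -4.72 and -4.53 against -5.13, -5.81 and -5.97 and fell by 1.12 (SE 0.32, adjusted p = 0.0272; -1.63 with the block, adjusted p = 0.133). CLCN1, the chloride channel of skeletal muscle, read -4.28, -4.32 and -3.70 in control and -4.80, -4.46 and -5.18 with piroxicam, a fall of 0.71 (SE 0.20, adjusted p = 0.0257). The naming rule for the widest changes took only genes whose groups do not overlap, as in 49.2% of all named genes. For these 3 genes the arrays within a group differed by far more than for MYC or BRD2.

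**Figure D4:**
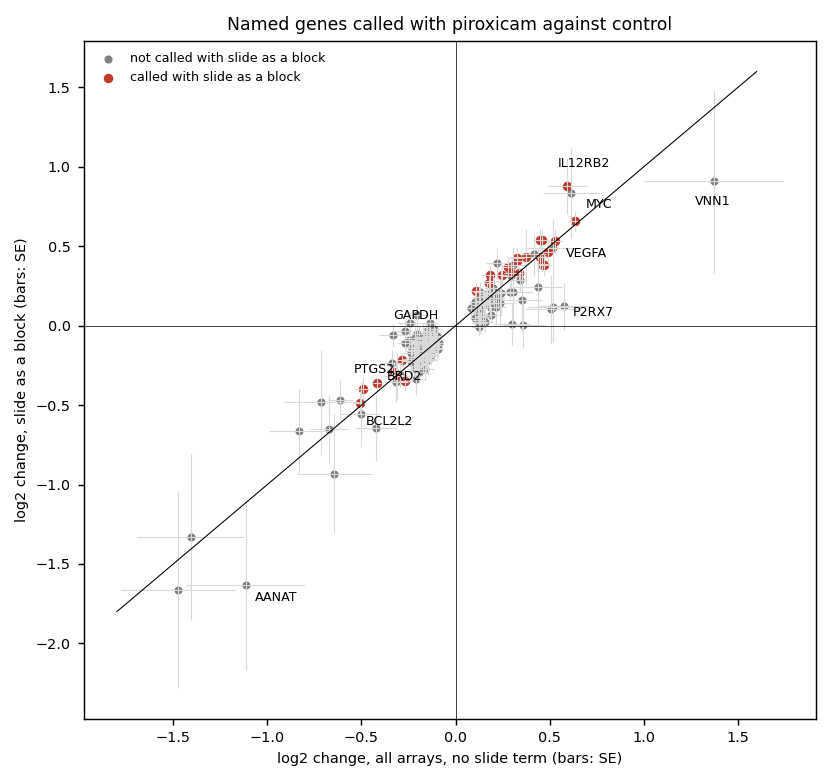
Log2 change of the 167 called named genes without a slide term (x axis) and with slide as a block (y axis), piroxicam minus control, with standard errors as bars and the line of equal values. Red points are called in both fits, and the dim genes VNN1 and AANAT lie far from 0 with wide error bars while P2RX7 and GAPDH are close to 0 with the block.

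In the pigment list 0 rose and 1 fell of 9. The gene that fell was MLPH, melanophilin, a carrier of melanosomes, which was well above background on 3 control arrays and on 0 piroxicam arrays. Its measured means were -6.58 ± 0.24 and -7.22 ± 0.33 (adjusted p = 0.0387), and the lowest detectable signal on those arrays was too near the control signal to bound the fold usefully. Markers of other cells were read beside these results. All 4 named of 8 fibroblast markers, COL1A1, COL1A2, DCN and PDGFRB, were well above background on all 6 arrays, with a summed log2 level of 6.22 to 6.26 on the controls and 6.11 to 6.18 with piroxicam, 1 higher and 2 lower. The leukocyte markers CD4 and CD8A (2 named of 8, summed level -3.66 to -3.23 in control and -3.32 to -3.26 with piroxicam) and the endothelial VWF (0.34 to 0.41 and 0.35 to 0.54) did not pass, and the endothelial KDR was above background on 0 of 6 arrays. CD40LG, a ligand of activated T cells, rose by 0.19 (adjusted p = 0.00687) on 1 of 2 probes, and S100A4, a calcium-binding protein of mesenchymal cells, fell by 0.13 (adjusted p = 0.0152). No epithelial marker of 6 had a named probe. The part of these cells in the results was not tested.

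The differences between piroxicam and the other drugs could be read within slides, although the doses differed in either version of the labels. In the block fit piroxicam and carprofen differed on 30.4% of the probes (5054 higher with piroxicam, 4673 lower), and piroxicam and robenacoxib on 18.3% (2474 higher, 3379 lower). Only slide 3 holds robenacoxib, so the latter contrast is piroxicam 3 alone against the 3 robenacoxib arrays, with that lone array assumed to vary like the others. On slide 2 alone, 2 arrays against 2, piroxicam and carprofen differed on 14.2% (1963 higher, 2591 lower). Fitted on the arrays of slide 3 only, piroxicam 3 against robenacoxib gave no call: limma called 0 probes (0%) and 7888 had an unadjusted p below 0.05. These contrasts use the piroxicam arrays already compared with the control. Of the 19 genes called under every alternative, 17 differed from carprofen in the direction of their change from control with slide as a block. Piroxicam 3 differed likewise from the robenacoxib arrays for 14, a count that rests on that 1 array. The exceptions were IL12RB2 and HSP70 for carprofen and IL12RB2, CXCL8, NPC1, ZNF331 and IGF2R for robenacoxib. The count for carprofen does not stand apart from the choice of the 19 genes. Their block estimate against control holds the difference from carprofen as 1 of its 2 parts, so the choice favoured agreement.

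MYC read 0.033, -0.0088 and 0.046 with carprofen and 0.47, 0.56 and 0.57 with robenacoxib, below all piroxicam arrays. In the block fit the piroxicam level was higher by 1.09 (adjusted p = 1.76e-05) than with carprofen, and piroxicam 3 was higher by 0.54 (adjusted p = 0.00093) than with robenacoxib. All differences from robenacoxib with the block that follow are likewise those of piroxicam 3 alone. PTGS2 read -2.72, -2.78 and -2.78 with carprofen and -2.97, -2.86 and -2.95 with robenacoxib, above all piroxicam and control arrays, and the piroxicam level differed by -0.90 (adjusted p = 3.97e-05) and -0.88 (adjusted p = 0.000271). BCL2L2 read -2.04, -2.06 and -2.02 and -2.22, -2.31 and -2.31 in the same order, with differences of -0.62 (adjusted p = 0.000156) and -0.44 (adjusted p = 0.00251). TGM1 was lowest with piroxicam, at a difference of -1.15 (adjusted p = 0.000114) from carprofen and -0.83 (adjusted p = 0.00176) from robenacoxib. SNAI2 was higher with piroxicam by 0.41 (adjusted p = 0.000171) and 0.30 (adjusted p = 0.00238). HTR2B, which rose with piroxicam against control, was lower than with either other drug, at a difference of -0.69 (adjusted p = 0.00101) from carprofen and -0.38 (adjusted p = 0.0367) from robenacoxib. HSP70 read 3.32, 3.28 and 3.25 with carprofen. The difference of -0.042 without the block (95% confidence interval -0.12 to 0.039, adjusted p = 0.409) did not pass, which does not show equal levels. CXCL8 read -0.61, -0.52 and -0.58 with robenacoxib, 0.072 away from piroxicam without the block (interval -0.0064 to 0.15, adjusted p = 0.166) and 0.038 (adjusted p = 0.642) with it, while it was higher than with carprofen by 0.61 (adjusted p = 0.000114).

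**Figure D5:**
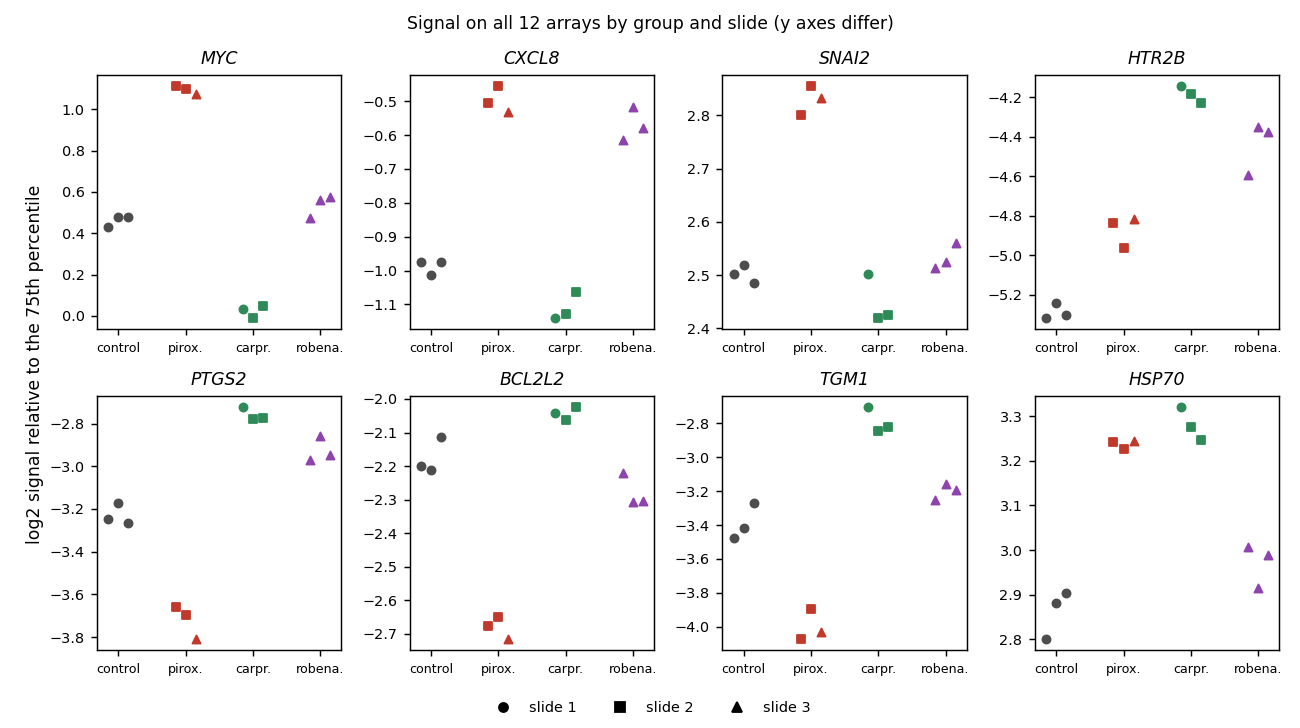
Signal of 8 genes on all 12 arrays (y axis, log2 relative to the array's 75th percentile, a separate range per panel) by group (x axis, 3 arrays each, control grey, piroxicam red, carprofen green, robenacoxib purple), with the marker shape for the slide. The piroxicam arrays are the highest for MYC and SNAI2, the lowest for PTGS2, BCL2L2 and TGM1, and lie between control and the other drugs for HTR2B.

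Most of the probes that moved had no name here. Probe A_11_P000002899 read -1.39, -1.44 and -1.48 in control and -2.84, -2.87 and -2.84 with piroxicam, a fall of 1.41 (SE 0.032, adjusted p = 1.35e-07). Probe A_11_P139211 fell by 1.44 (SE 0.32, adjusted p = 0.00925). Probe A_11_P000007723 read -3.59, -3.66 and -3.60 against -2.20, -2.25 and -2.25 and rose 2.61-fold (SE 0.064, adjusted p = 2.68e-06). Probe A_11_P139196 rose by 1.24 (SE 0.28, adjusted p = 0.0103). In the fit blocked on slide, the calls of A_11_P139211 and A_11_P139196 ended (adjusted p = 0.125 and 0.275), and that of A_11_P139196 also under normexp with the 75th percentile (0.37, adjusted p = 0.253). The SD over 3 arrays was 0.04 in control and 0.02 with piroxicam for A_11_P000002899, and 0.33 and 0.34 for A_11_P139196, so the former pair of groups was far tighter.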

How the data were processed

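Per the file headers, Feature Extraction 10.7.3.1 (protocol GE1_107_Sep09) read the one-colour arrays, and the deposited intensity of each spot is background-subtracted within its array. A value table from the authors, on a log2 scale judging by its numbers, served as an alternative, and the submitters' processing notes name limma 3.24.15. Here, control and outlier-flagged spots were left out, log2 processed signal was set relative to each array's 75th percentile, and spots of a probe were averaged. Probes well above background on all 3 arrays of any group (31996 of 43603) were tested. One model over 12 arrays (limma 3.58.1 lmFit and eBayes, R 4.3.3, version 1.17.8 of data.table, 8 residual degrees of freedom) gave two-sided p-values, adjusted over all tested probes by Benjamini-Hochberg and called below 0.05. Alternatives changed scaling, background correction, filter, slide or replicate block, and arrays used. Normexp used the median signal, the signal column that the files hold. Probe accessions were matched to RefSeq gene names of UU_Cfam_GSD_1.0. Genes were named by a rule: the 12 widest changes each way among called, non-overlapping genes above background on all 6 arrays, up to 4 called members per list, fixed names, up to 2 unnamed probes each way, and genes whose probes disagreed. The members, lists and rule were chosen with earlier results of these data known. The number of arrays limits the precision (median SE 0.053). The fit was tested on simulated data with independent noise and no slide effect, which cannot speak to the slides that separate the groups. Values of a few genes are not reported here.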

Additional observations from a re-analysis of the deposited data

How the results depend on the processing

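The slide block gave 805 probes above and 824 below control, and 21 and 11 named genes. Of the original calls 16.3% were kept, while the median standard error grew from 0.053 to 0.092. Spike-in scaling gave 12939 probes higher and 978 lower, and 250 and 14 named genes, since it moved every change up by 0.174. The 14 genes, all also lower as first scaled, were SAG, DLA-DQB1, AANAT, PTGER2, CLCN1, HGFAC, TGM1, BCL2L2, TNNI3, PTGS2, BRD2, PRKACA, CDKN1B and MX1, of which SAG and HGFAC are named after their values were seen. Normexp with the 75th percentile gave 2181 probes higher, and 37 named genes higher and 62 lower. Without both control 3 and piroxicam 3, the counts were 2268 and 2512 probes and 35 and 40 named genes, from fewer arrays. Leaving out 1 array at a time gave 2748 to 3098 probes higher, 3544 to 4778 lower, 50 to 56 named genes higher and 62 to 80 lower, with 65 lower genes without control 2 and 62 without control 3. Against the other drugs, spike-in scaling gave 1355 probes higher and 13719 lower than with carprofen, and 1151 higher and 10606 lower than with robenacoxib. Slide 2 alone gave 1963 and 2591 against carprofen, the slide block 2474 higher against robenacoxib, and slide 3 alone 0 higher and 0 lower in limma, with 7888 at an unadjusted p below 0.05.

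Signs of some small changes turned. Under spike-in scaling the log2 change stood above 0 for ABCB1 (0.167), BIRC5 (0.153), BCL2 (0.145), SEC11A (0.0777), COL1A2 (0.0748), BGN (0.0579), RAB1A (0.0562), S100A4 (0.0445), ID3 (0.0391), RAB11A (0.0232), ATP1B1 (0.0226), CCL17 (0.0207), VPS52 (0.0202), SLC3A1 (0.0179), MT1E (0.0131), RAB5A (0.0102), KCNMB1 (0.00218) and SRP72 (0.000555). Under normexp with the 75th percentile UTRN changed by -0.0867, VPS52 by 0.0261 and SULT1A1 by 0.00976. Normexp with quantile normalization gave -0.0793 for UTRN, 0.0346 for VPS52, 0.0235 for SULT1A1, 0.0178 for S100A4 and 0.0535 for GAPDH, and the deposited values gave -0.0815, 0.0374, 0.0237, 0.0172 and 0.0294 in the same order. With the slide block 4 called named genes turned sign, among them ATP4A (-0.00763). Apart from the shift that spike-in scaling adds to every gene, the cause was not tested.

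Control and piroxicam arrays of the same replicate number deviated from their group means with correlations of 0.029, -0.45 and -0.43. Pairs of unlike numbers gave -0.29 to 0.57. With 3 arrays per group these values cannot settle whether the numbers mark a shared batch. A replicate block gave 3226 probes higher and 4242 lower and kept 81.8% of the calls. Probes near background limit the widest changes: of 26 probes higher and 135 lower by 2-fold or more, 17 and 18, respectively, exceeded background well on all 6 arrays.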
